A study of Mus musculus with 16 samples.

Results

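The insulin and insulin-like growth factor (IGF) signaling genes examined here were Igf1r, Insr, Igf2r, Igf1, Igf2, Irs1, Irs2, Igfbp2, Igfbp4 and Igfbp5, taken by gene symbol from the deposited expression table of the dorsal raphe nucleus (DRN). Of these 10 genes, 8 were among the 14504 genes listed, and the ligand genes Igf1 and Igf2 were not analysed here. The rule used gene symbols alone.

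Poly(A)+ RNA was sequenced from the DRN of male C57BL/6 mice in 16 libraries. Mice were undefeated controls or had been through 30 days of chronic social defeat, and behavior divided the defeated mice into a passive coping class (PS) and an active coping class (AS). Each received 1 injection of saline or of dexamethasone (DEX, 2 mg/kg), a synthetic glucocorticoid, and tissue was taken 6 h later. The groups were control saline (3 libraries), control DEX (3), PS saline (2), PS DEX (3), AS saline (3) and AS DEX (2). Each library came from a single animal, the coping classes were drawn by clustering of behavioral scores, and the study left out DRN libraries of DEX-treated PS and AS mice with low Tph2. The study's methods describe further DRN libraries that were not analysed here. Single control libraries are named by title (con_sal_104 for a saline and con_dex_116 for a DEX library), and PS and AS libraries by group and number. The depth was 38207157 to 62447298 reads in the listed genes.

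IGF-1 and insulin act through the receptor tyrosine kinases encoded by Igf1r and Insr. Activated receptors phosphorylate the docking proteins IRS1 and IRS2, which recruit PI3 kinase and thereby activate AKT, restrain FOXO transcription factors and activate mTORC1. IGF2R binds IGF-2 and carries it to lysosomes without signaling as a kinase, and the IGF-binding proteins hold IGFs in the extracellular space and set how much reaches the receptors. In the brain the pathway is known for its part in neuronal growth, survival and metabolism, and glucocorticoids are known to oppose insulin action in many tissues.

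By limma Igf1r rose after DEX and was the single member past the threshold in any comparison, 1.53-fold on average over the 3 phenotypes. The call held in 11 other settings, with log2 differences of 0.40 to 0.61, and failed in 8 of 16 refits that each dropped a library. Insr, which encodes the receptor most closely related to that of Igf1r, was higher in every DEX library than in every saline library of the same phenotype. It missed the threshold by limma, though not by DESeq2. The level of Igf1r relative to Igf2r separated all 8 DEX libraries from all 8 saline libraries. Ratios were looked at after values had been seen, and this was the single pair of 28 to separate the arms. No member passed the threshold by limma, DESeq2 or edgeR between PS, AS and control mice, under saline or under DEX.

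**Figure D1:**
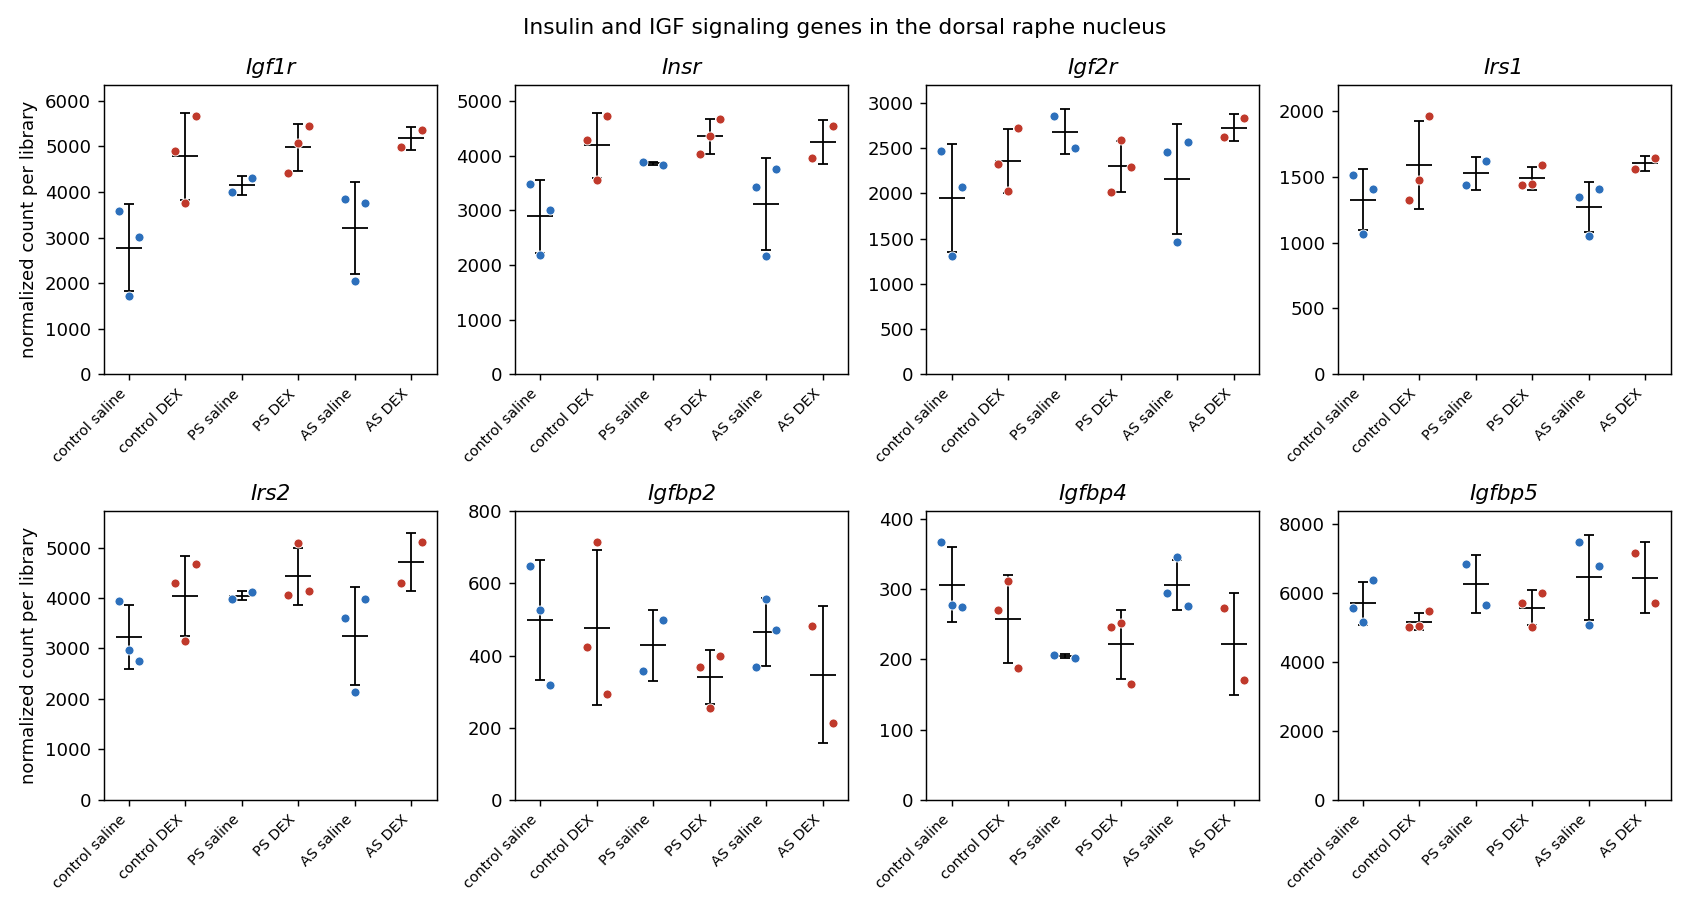
Normalized counts (reads divided by the library's size factor, linear axes from 0) of the 8 listed genes in each of the 6 groups. Blue points are saline libraries, red points DEX libraries, and black bars the group mean ± SD. For Igf1r and Insr the red points lie above the blue points within each phenotype, and the lowest blue points of the receptor genes come from the same control saline and AS saline libraries.

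The DRN identity and the treatment labels were checked first. All 12 serotonin neuron markers sought, Tph2 and Slc6a4 among them, were listed, and their summed normalized count was 314156 to 468446 in every library. The study had left out libraries with low Tph2, so this outcome was partly set in advance, and no other tissue was compared. Of 14 known glucocorticoid target genes, such as Fkbp5, Sgk1 and Tsc22d3, 13 were called higher with DEX on average, and their summed level was 23190 to 28775 in the saline libraries and 52770 to 73425 in the DEX libraries. Long transcripts were low in some saline libraries. The 10% of genes with the longest transcripts (6963 nt or more) lay at a median log2 deviation from their own means of -0.49 in con_sal_104, of -0.36 in AS saline 40 and of -0.15 in con_sal_114, against -0.05 to 0.19 in the other libraries. The receptor genes belong to this length class, so values without this trend are given with their DEX results.

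Igf1r (chr7:67952827-68233668, plus strand, GRCm38) encodes the IGF-1 receptor, and its longest annotated transcript measures 11409 nt. In control mice its normalized count was 3588, 1726 and 3006 after saline and 4907, 3761 and 5671 after DEX. In PS mice it was 4001 and 4297 after saline and 4419, 5066 and 5452 after DEX. In AS mice it was 3835, 2042 and 3765 after saline and 4999 and 5360 after DEX. Within each phenotype every DEX library lay above every saline library, whereas the lowest DEX value, in con_dex_116, fell below values of 4 saline libraries of other phenotypes. Group means ± SD were 2773 ± 953 (n = 3) in control saline, 3214 ± 1016 (n = 3) in AS saline, 4149 ± 209 (n = 2) in PS saline, 4780 ± 961 (n = 3) in control DEX, 4979 ± 522 (n = 3) in PS DEX and 5179 ± 255 (n = 2) in AS DEX. In that rising order each group overlapped its neighbors within their spread, except that every PS saline library was above every AS saline library.

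The genes were tested with limma on log2(normalized count + 1), with Benjamini-Hochberg (BH) adjustment over all 14504 genes in each comparison and a threshold of adjusted p under 0.1. Averaged over the phenotypes, DEX raised Igf1r by 0.61 on the log2 scale (SE 0.16, 95% interval 0.26 to 0.97, limma adjusted p = 0.0676). That comparison called 4.31% of all genes, and 1 of the 8 members. The median log2 difference was 0.17 over the 8 members and -0.003 over all genes. Over all genes with transcripts of 6963 nt or more, the class of Igf1r, Insr, Igf2r and Irs1, the median was 0.15. Of that class 5.91% were called, whereas the share over all genes has no minimum mean. The member median was thus close to that of long transcripts in general, and a shift of the members beyond it was not tested. Without con_sal_104 and AS saline 40, the libraries with the lowest level of long transcripts, the Igf1r difference was 0.41 (limma adjusted p = 0.024), and with the trend on transcript length removed from every library it was 0.41 (limma adjusted p = 0.00553). With groups of 2 or 3 libraries, the call did not survive in 8 of 16 refits that each dropped a library, with limma adjusted p of 0.125 without con_dex_101, 0.15 without con_dex_122, 0.111 without PS DEX 6, 0.136 without PS DEX 64, 0.174 without PS saline 62, 0.162 without PS saline 68, 0.137 without AS DEX 38 and 0.223 without AS DEX 42.

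Within single phenotypes no member was called by limma. In control mice, where 1.26% of all genes were called, Igf1r differed by 0.83 (SE 0.26, limma adjusted p = 0.235), and DESeq2 on the recovered reads called it at an adjusted p of 0.0814. In PS mice, where 0.703% of genes were called, the difference was 0.26 (SE 0.30, 95% interval -0.38 to 0.89, limma adjusted p = 0.9999). In AS mice, where 0.689% of genes were called, it was 0.74 (SE 0.30, limma adjusted p = 0.482). At an unadjusted p under 0.05 limma gave 2 members in control, 0 in PS and 3 in AS mice, against 12.1%, 4.69% and 9.36% of all genes. With the length trend removed the Igf1r difference was 0.45 in control, 0.29 in PS and 0.49 in AS mice. It was 0.52 in control mice without con_sal_104 and 0.45 in AS mice without AS saline 40. DESeq2 called 1, 0 and 0 members and edgeR 0 in each. The difference between the DEX effects of PS and control mice was -0.57 for Igf1r (SE 0.40, 95% interval -1.42 to 0.28, limma adjusted p = 0.9996), and limma called 0 members and 0 genes (0%) in each of the 3 interactions. At an unadjusted p under 0.05 these held 0 members and 304, 583 and 421 genes for PS against control, AS against control and AS against PS, and DESeq2 called 0, 0 and 1 genes and edgeR 0 in each.

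**Figure D2:**
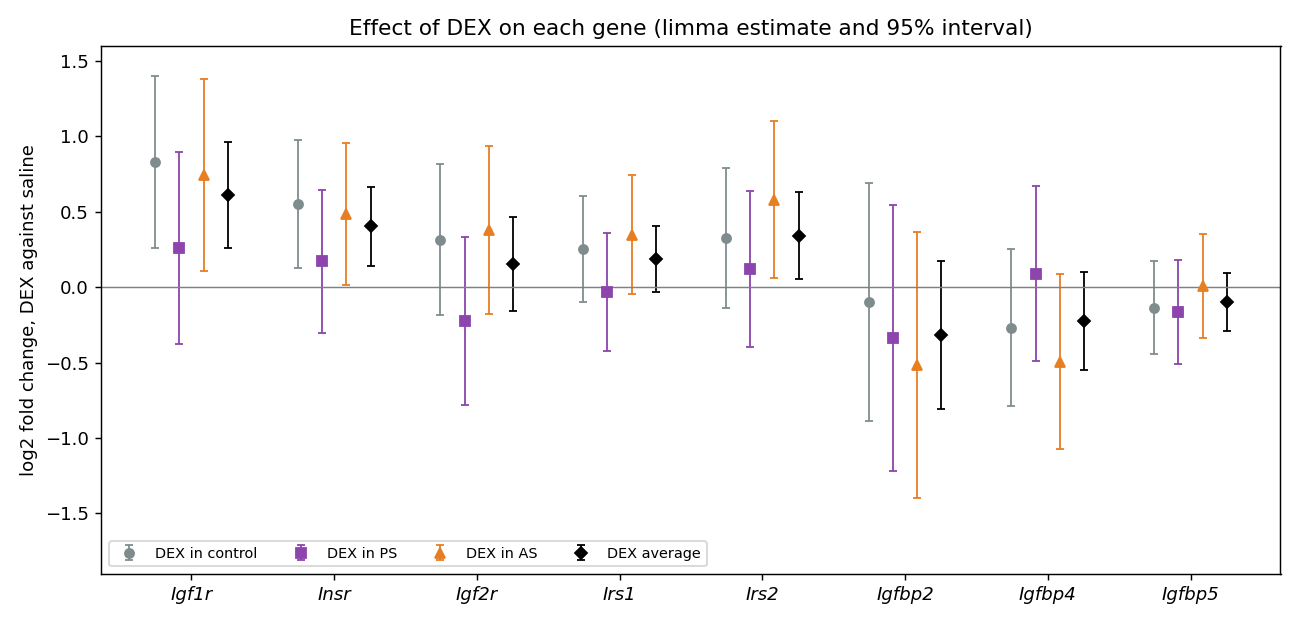
Log2 fold change of each gene with DEX against saline, estimated by limma in control, PS and AS mice and as their average, with 95% intervals. The average for Igf1r lies at 0.61 with an interval of 0.26 to 0.97, the estimates for Igf1r, Insr and Irs2 are above 0 in each phenotype, and the intervals of the 3 binding proteins all span 0.

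Insr (chr8:3122061-3279617, minus strand, longest transcript 9355 nt) encodes the insulin receptor. Its normalized count in control mice was 3490, 2176 and 3006 after saline and 4287, 3551 and 4732 after DEX. It was 3884 and 3841 after saline and 4031, 4369 and 4673 after DEX in PS mice. It was 3430, 2169 and 3751 after saline and 3969 and 4541 after DEX in AS mice. The arms did not overlap within any phenotype. Such separation in the higher direction in all 3 phenotypes was met by Igf1r and Insr, 2 of the 8 members, against 1.9% of all genes. The average log2 difference of Insr was 0.40 (SE 0.12, 95% interval 0.14 to 0.67, limma adjusted p = 0.117), made up of 0.55 in control, 0.17 in PS and 0.48 in AS mice. These were 0.24, 0.19 and 0.28 with the length trend removed. Other processing placed it past the threshold, at 0.24 (limma adjusted p = 0.0193) with the length trend removed and at 0.39 by DESeq2 (adjusted p = 0.0467).

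**Figure D3:**
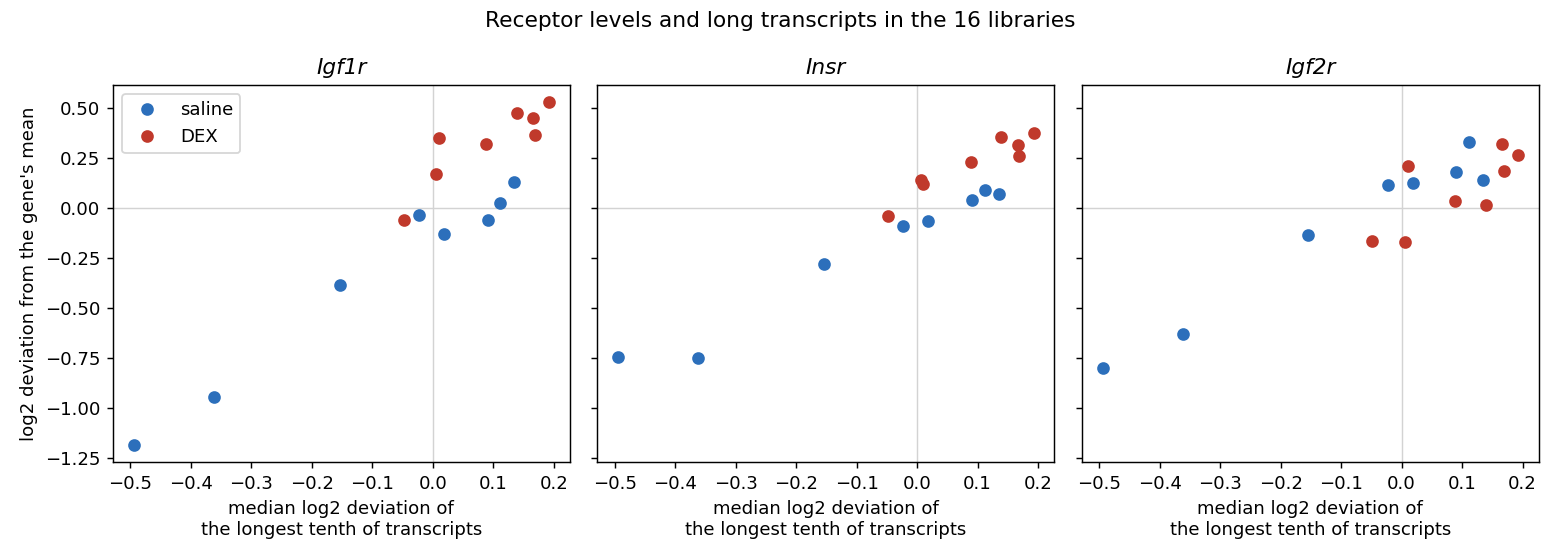
Log2 deviation of Igf1r, Insr and Igf2r from their means in each library against the median log2 deviation of the 10% of genes with the longest transcripts. The saline libraries con_sal_104 and AS saline 40 are the leftmost blue points in each panel, and to their right most red points of Igf1r and Insr lie above blue points at a similar position, con_dex_116 being close to one for Igf1r, while for Igf2r red and blue points mix.

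With the length trend removed, Igf1r and Insr were each higher in all 8 DEX libraries than in all 8 saline libraries, a pattern met by 1.46% of the 14493 genes with an annotated length. For Igf1r the lowest DEX value on the log2 scale was then 11.94 and the highest saline value 11.93, so the gap between the arms was narrow. On the values as deposited neither gene separated the arms across all 16 libraries, as 1.37% of genes did. Over the 16 libraries the genes most like Igf1r in their log2 level were Clmn (Pearson r = 0.986, longest transcript 11866 nt), Insr (r = 0.986) and Zfp236 (r = 0.972, 9626 nt), all of them with long transcripts. These libraries share the length trend described above, so the likeness is a description and was not tested.

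Igf2r (chr17:12682406-12769664, minus strand, longest transcript 8887 nt) encodes the clearance receptor for IGF-2. Its normalized count was 2476, 1304 and 2068 after saline and 2325, 2027 and 2728 after DEX in control mice. In PS mice the saline libraries, at 2859 and 2506, overlapped the DEX libraries, at 2016, 2587 and 2297. In AS mice the saline libraries gave 2458, 1465 and 2571 and the DEX libraries 2627 and 2834. The average difference was 0.16 (SE 0.15, 95% interval -0.16 to 0.47, limma adjusted p = 0.636), and without con_sal_104 and AS saline 40 its sign turned, at -0.019. With the length trend removed it was 0.0013. The antisense gene Airn overlaps the 5′ part of Igf2r, and the sources used here do not state whether counting used strand, so Igf2r reads could include Airn.

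The receptors were also set against each other within each library, a choice made after their values had been seen. Such a ratio does not depend on the scaling of the library, but the length trend can enter it where transcripts differ in length. The ratio of Igf1r to Igf2r was 1.41 ± 0.0741 (SD, n = 3) in control saline, 1.56 ± 0.223 (n = 2) in PS saline and 1.47 ± 0.0836 (n = 3) in AS saline. With DEX it was 2.01 ± 0.139 (n = 3) in control, 2.17 ± 0.208 (n = 3) in PS and 1.9 ± 0.00849 (n = 2) in AS mice. The 8 saline libraries ranged from 1.32 to 1.71 and the 8 DEX libraries from 1.85 to 2.37, with no overlap. Of the 28 pairs of members this was the single pair whose ratio separated the arms, and 0.269% of all other genes had a ratio to Igf2r that was higher in every DEX library than in every saline library. The average log2 difference of the ratio was 0.46. It was 0.41 with the length trend removed and 0.43 without con_sal_104 and AS saline 40, and the arms stayed apart in both settings.

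**Figure D4:**
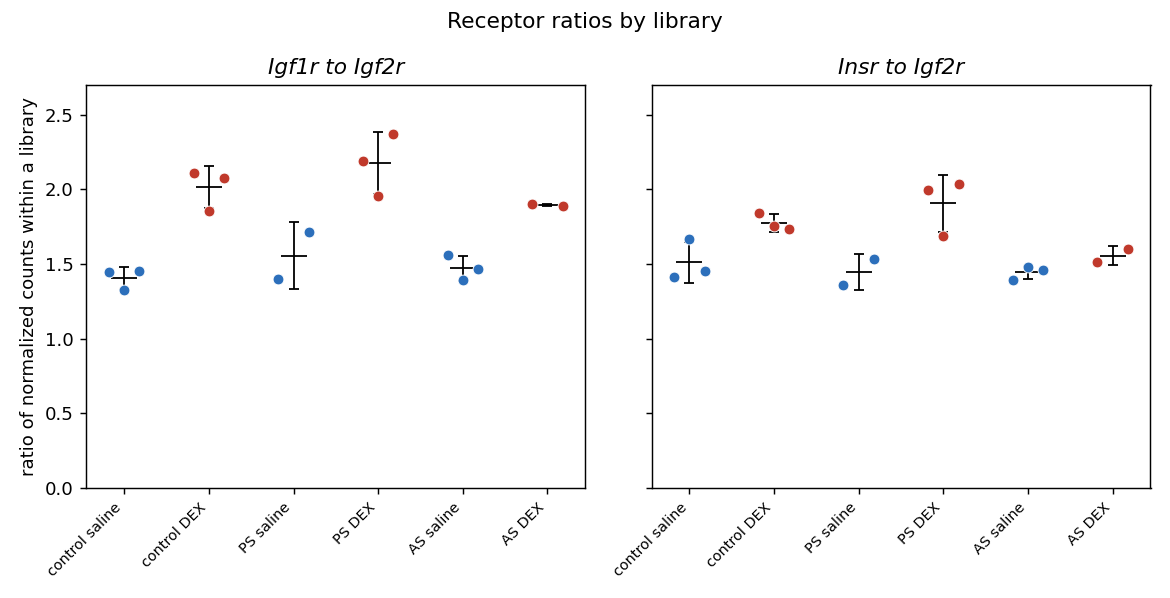
Ratio of the normalized counts of Igf1r to Igf2r (left) and of Insr to Igf2r (right) within each library, on a linear axis from 0, with group means ± SD. For Igf1r all DEX libraries lie at 1.85 or above and all saline libraries at 1.71 or below, while the arms overlap for Insr.

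The ratio of Insr to Igf2r showed a smaller average log2 difference of 0.25, with saline libraries from 1.359 to 1.67 and DEX libraries from 1.51 to 2.03, which overlap. Igf1r exceeded its saline level relative to each of the 7 other members in all 3 phenotypes, by an average of 0.21 (against Insr) to 0.93 (against Igfbp2) on the log2 scale. The longest transcripts of the members run from 1307 nt (Igfbp2) to 11409 nt (Igf1r), so these values include the length trend. Of the Igf1r ratios, only that to Igf2r was also computed with the trend removed. PS mice, in which the level of Igf1r differed least between DEX and saline, had a difference of 0.48 in the log2 ratio of Igf1r to Igf2r, against 0.52 in control and 0.37 in AS mice. By limma Igf2r itself differed by -0.23 in PS, 0.31 in control and 0.38 in AS mice, none of them called. The ratio difference in PS mice thus includes a lower estimate of Igf2r.

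The sequences before the start sites of Igf1r and Igf2r are shown because their ratio separated the arms. That of Igfbp2 is shown because it held the glucocorticoid receptor hexamer AGAACA, searched on both strands. No other of the 7 listed members with an entry in the promoter table held it. A RefSeq start of Igf2, which was not analysed here, also held it. A second RefSeq start of Igfbp2 did not hold it. Each is the 250 bases before the RefSeq start (GRCm38.p6), 5′ to 3′ on the strand of the gene. Capitals mark GGGCGG, the GC box bound by SP1, and AGAACA, on either strand. No marked motif overlaps another, and a pair of the GC boxes before Igf2r adjoin. The RefSeq start of Igf1r lies 5′ of the start of its GENCODE gene model.
Igf1r, chr7:67952007-67952256, plus strand: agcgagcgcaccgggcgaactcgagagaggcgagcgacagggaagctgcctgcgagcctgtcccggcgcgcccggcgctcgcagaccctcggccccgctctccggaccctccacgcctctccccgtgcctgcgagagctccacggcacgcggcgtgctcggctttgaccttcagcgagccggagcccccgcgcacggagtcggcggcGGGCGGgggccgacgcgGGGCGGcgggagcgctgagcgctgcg
Igf2r, chr17:12769707-12769956, minus strand: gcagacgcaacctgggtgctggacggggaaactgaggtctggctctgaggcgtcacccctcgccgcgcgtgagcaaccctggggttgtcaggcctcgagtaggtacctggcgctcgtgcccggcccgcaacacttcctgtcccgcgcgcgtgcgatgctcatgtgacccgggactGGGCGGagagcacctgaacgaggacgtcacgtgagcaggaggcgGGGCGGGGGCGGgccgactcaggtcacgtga
Igfbp2, chr1:72824230-72824479, plus strand: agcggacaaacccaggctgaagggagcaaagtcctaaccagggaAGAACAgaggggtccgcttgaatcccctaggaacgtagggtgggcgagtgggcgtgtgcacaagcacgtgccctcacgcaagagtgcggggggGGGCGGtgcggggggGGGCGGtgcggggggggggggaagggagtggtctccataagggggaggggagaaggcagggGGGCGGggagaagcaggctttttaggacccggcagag

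The Igf1r stretch held 42 CpG dinucleotides and 77.6% G or C, the Igf2r stretch 27 and 69.2%, and the median over all 32851 promoters of the table was 6 and 52.4%. GGGCGG was found 2 times before Igf1r and 3 times before Igf2r, and in 32.7% of all promoters. AGAACA was found before neither receptor and in 16.1% of all promoters. The inverted repeat of AGAACA with a spacer of 3 bases and the FOXO motif GTAAACA were in no member's window and in 0.00913% and 3.17% of all promoters. For 7 of the 8 listed members the table had an entry, and Insr was missing. A match or its absence describes these letters alone.

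Irs1 and Irs2 encode the docking proteins through which both receptors reach PI3 kinase. Irs2 (chr8:10984681-11008458, minus strand, longest transcript 6323 nt) had normalized counts of 3939, 2969 and 2748 after saline and 4306, 3139 and 4667 after DEX in control mice. In PS mice the counts were 3980 and 4112 after saline and 4062, 5081 and 4140 after DEX. In AS mice they were 3608, 2140 and 3990 after saline and 4300 and 5117 after DEX, without overlap. How many of all genes did so in AS mice was not counted. The average log2 difference was 0.34 (SE 0.13, 95% interval 0.05 to 0.63, limma adjusted p = 0.269), and it passed the threshold in 1 of the 11 other settings that kept every group, with length and GC trends removed (0.27, limma adjusted p = 0.0653).

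Irs1 (chr1:82233101-82291416, minus strand, longest transcript 9144 nt) ranged from 1052 in AS saline 40 to 1965 in con_dex_122. Its arms overlapped in control and PS mice, while in AS mice saline gave 1347, 1052 and 1411 and DEX 1565 and 1644. The average difference was 0.19 (SE 0.10, 95% interval -0.03 to 0.41, limma adjusted p = 0.428). The estimate in control mice was 0.25, and it was -0.046 with the length trend removed, which turned its sign.

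The 3 binding proteins had average estimates below 0, and none was called. Igfbp2 (chr1:72824503-72852474, plus strand, longest transcript 1307 nt) was 649, 527 and 319 after saline and 423, 716 and 294 after DEX in control mice. It was 358 and 498 after saline and 369, 255 and 398 after DEX in PS mice, and 369, 556 and 470 after saline and 481 and 212 after DEX in AS mice. The arms overlapped in every phenotype, and the average difference was -0.32 (SE 0.23, 95% interval -0.81 to 0.17, limma adjusted p = 0.541). Igfbp2 had the second widest spread of the members over the libraries, with an SD of 0.47 on the log2 scale against 0.49 for Igf1r and 0.19 for Igfbp5. Cells of the choroid plexus and meninges are known sources of this gene. Of 10 choroid plexus markers 6 were listed, and their summed level was 1166 to 3274 in saline and 2275 to 3170 in DEX libraries, while 1 of 10 meningeal fibroblast markers was listed. The part of these cells in the level of Igfbp2 was not tested.

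Igfbp4 (chr11:99041244-99054392, plus strand, longest transcript 3831 nt), an inhibitory binding protein that the protease PAPP-A cleaves, had the lowest level per length. Its counts were 368, 277 and 274 in control saline, 206 and 202 in PS saline and 294, 345 and 276 in AS saline. With DEX they were 271, 312 and 188 in control, 247, 252 and 165 in PS and 273 and 170 in AS mice. PS saline stood below both other saline groups without overlap, and in AS mice every DEX library was below every saline library. The shares of all genes with these patterns were not counted. The average DEX difference was -0.22 (SE 0.15, 95% interval -0.55 to 0.10, limma adjusted p = 0.51).

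Igfbp5 (chr1:72857932-72874884, minus strand, longest transcript 6006 nt), which also binds the extracellular matrix, was the most abundant member per length and the steadiest. Its counts ran from 5008 in con_dex_101 to 7474 in AS saline 14, and the arms overlapped in PS and AS mice as well as in control mice. The average DEX difference was -0.10 (SE 0.09, 95% interval -0.29 to 0.10, limma adjusted p = 0.632).

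Between genes, levels were compared per kilobase of the longest transcript. Averaged over all 16 libraries, Igfbp5 stood at 977 ± 136 (SD) normalized counts per kb and Irs2 at 616 ± 128. Insr followed at 400 ± 82.8, Igf1r at 361 ± 101.3 and Igfbp2 at 330 ± 106, levels that lay within 1 SD of each other. Their order differed between groups, with Igfbp2 highest of the 3 in control saline (381, against 309 for Insr and 243 for Igf1r) and lowest in AS DEX (265, against 455 and 454). Igfbp2 has a much shorter transcript than Insr and Igf1r, and long transcripts were low in con_sal_104 and con_sal_114. These levels were not corrected for the length trend, and its part in the order was not tested. Igf2r stood at 261 ± 50.6, Irs1 at 159 ± 23.8 and Igfbp4 at 67.2 ± 15.4. Thus Igf1r had fewer reads per length than Insr in saline-treated control mice (243 ± 83.5 against 309 ± 71.1, n = 3) and like numbers in control DEX (419 ± 84.3 against 448 ± 63.7, n = 3), differences within the spread between libraries.

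The question of stress was asked by setting PS and AS mice against controls. Under saline limma called 0 members and 0 genes in all (0%) in each of the 3 comparisons. At an unadjusted p under 0.05 these held 1 member for PS against control and 0 for the other 2, edgeR called 0 genes in each, and DESeq2 called 0 members and 4, 11 and 1 genes. Of all genes 1112, 347 and 494 had an unadjusted p under 0.05 for PS against control, AS against control and AS against PS. The member with an unadjusted p under 0.05 was Igf1r in PS against control, with a log2 difference of 0.65 (SE 0.30, 95% interval 0.01 to 1.28, limma adjusted p = 0.571). Both PS saline libraries were above all 3 control saline libraries for Igf1r, Insr, Igf2r and Irs2, 4 of the 8 members, as for 14.3% of all genes. The class with transcripts of 6963 nt or more moved with them, at a median log2 difference of 0.34 in this comparison. With the length trend removed the differences were 0.19 for Igf1r, 0.085 for Insr, 0.17 for Igf2r and 0.16 for Irs2, and the groups then overlapped for Igf2r and Irs2. Without con_sal_104 the Igf1r difference was 0.34. Igfbp4 had the opposite sign, at -0.57 in PS against control (SE 0.27, limma adjusted p = 0.571) and 0.57 in AS against PS (SE 0.27, limma adjusted p = 0.728).

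Under DEX limma called 0 genes for PS against control (0%), 0 for AS against PS (0%) and 1 for AS against control (0.00689%), which was no member. At an unadjusted p under 0.05 there were 0 members in each and 178, 247 and 508 genes. DESeq2 called 0, 5 and 12 genes and edgeR 0, with no member among them. Igf1r differed by 0.07 in PS against control (95% interval -0.49 to 0.64) and by 0.14 in AS against control (-0.50 to 0.77). Igfbp5 was higher in both AS DEX libraries, 7152 and 5702, than in the 3 control DEX libraries, 5008, 5022 and 5453, a difference of 0.31 (SE 0.16, limma adjusted p = 0.99). The share of all genes with this pattern was not counted.

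Of 95 other genes of the pathway sought, 74 were listed, and 9 of them were called by limma for DEX, all 9 on average over phenotypes, 7 higher and 2 lower, where 4.31% of all genes were called. Among ligands, binding proteins and their proteases 1 of 5 listed genes was called higher. Of 18 adaptors and receptor brakes 2 were called higher and 1 lower, of 22 PI3K, AKT and FOXO genes 1 higher and 1 lower, of 15 mTORC1 genes 1 higher, and of 14 known FOXO targets 2 higher. The median log2 difference of these lists lay between 0.02 and 0.13, against -0.003 over all genes. The lists were chosen with earlier results of these data known, so the counts are a description and an excess was not tested. Under saline stress and in the interactions none of the 74 was called.

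Htra1 and Ddit4 were called higher in each phenotype and on average. Htra1, a secreted serine protease that can cleave IGF-binding proteins, had normalized counts of 2522 to 4121 (median 3273) in the saline and 5049 to 6396 (median 5813) in the DEX libraries. Its average log2 difference was 0.83 (SE 0.09, limma adjusted p = 9.35e-05). Ddit4, whose product REDD1 inhibits mTORC1 and is a known glucocorticoid target, ran from 1570 to 1992 (median 1830) with saline and from 2260 to 3516 (median 3119) with DEX, an average difference of 0.73 (SE 0.09, limma adjusted p = 0.000142). For both genes all 8 DEX libraries were above all 8 saline libraries. Their calls in AS mice were close to the threshold (limma adjusted p = 0.0928 and 0.0994) and were fragile. That of Htra1 failed in 11 of 16 refits that each dropped a library and held without con_sal_102 or con_sal_114, PS saline 62 or 68, or AS saline 40. That of Ddit4 failed in 14 and held without con_dex_116 or con_sal_104. In PS mice both were lost without PS DEX 34 or PS saline 62, and Ddit4 also without PS saline 68. In control mice Ddit4 was lost without con_dex_101 or con_dex_122.

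Ptpn11, which encodes the phosphatase SHP2 that docks on IRS and GAB proteins, was called higher in control and AS mice and on average. Its counts were 8742 to 11873 (median 11368) with saline and 14604 to 17144 (median 16654) with DEX, without overlap, and the average difference was 0.55 (SE 0.07, limma adjusted p = 0.000275). The call in control mice was lost without con_dex_101 or con_dex_122, without con_sal_114 and with the length trend removed, and that in AS mice without AS DEX 38 or 42 or AS saline 14 or 40.

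The other calls held for the average alone. Foxo1, the transcription factor that AKT excludes from the nucleus, ran from 513 to 852 (median 616) with saline and from 847 to 1266 (median 931) with DEX, a narrow overlap, with an average difference of 0.64 (SE 0.11, limma adjusted p = 0.00254). Pdk4, a FOXO target that restrains pyruvate oxidation, was 173 to 316 (median 242) with saline and 317 to 471 (median 382) with DEX, an average difference of 0.75 (SE 0.14, limma adjusted p = 0.00602). Sesn1, a FOXO target whose product restrains mTORC1, was 1645 to 2161 (median 1869) and 2212 to 2717 (median 2515), an average difference of 0.38 (SE 0.07, limma adjusted p = 0.00839). Neither of the last 2 genes showed overlap between the arms.

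Sh2b2, an adaptor of the insulin receptor, was 263 to 491 (median 378) with saline and 518 to 737 (median 644) with DEX, an average difference of 0.74 (SE 0.12, limma adjusted p = 0.00301). Gab1, a docking protein of receptor tyrosine kinases, fell, from 1210 to 1617 (median 1464) with saline to 939 to 1199 (median 1030) with DEX, an average difference of -0.46 (SE 0.09, limma adjusted p = 0.00757), and the arms did not overlap. Trib2, a pseudokinase reported to bind AKT and FOXO, fell by 0.22 (SE 0.06, limma adjusted p = 0.0931), with 1622 to 2060 (median 1918) and 1434 to 1748 (median 1671). The Trib2 call failed in 14 of 16 refits that each dropped a library and held without PS DEX 6 or PS saline 62.

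**Figure D5:**
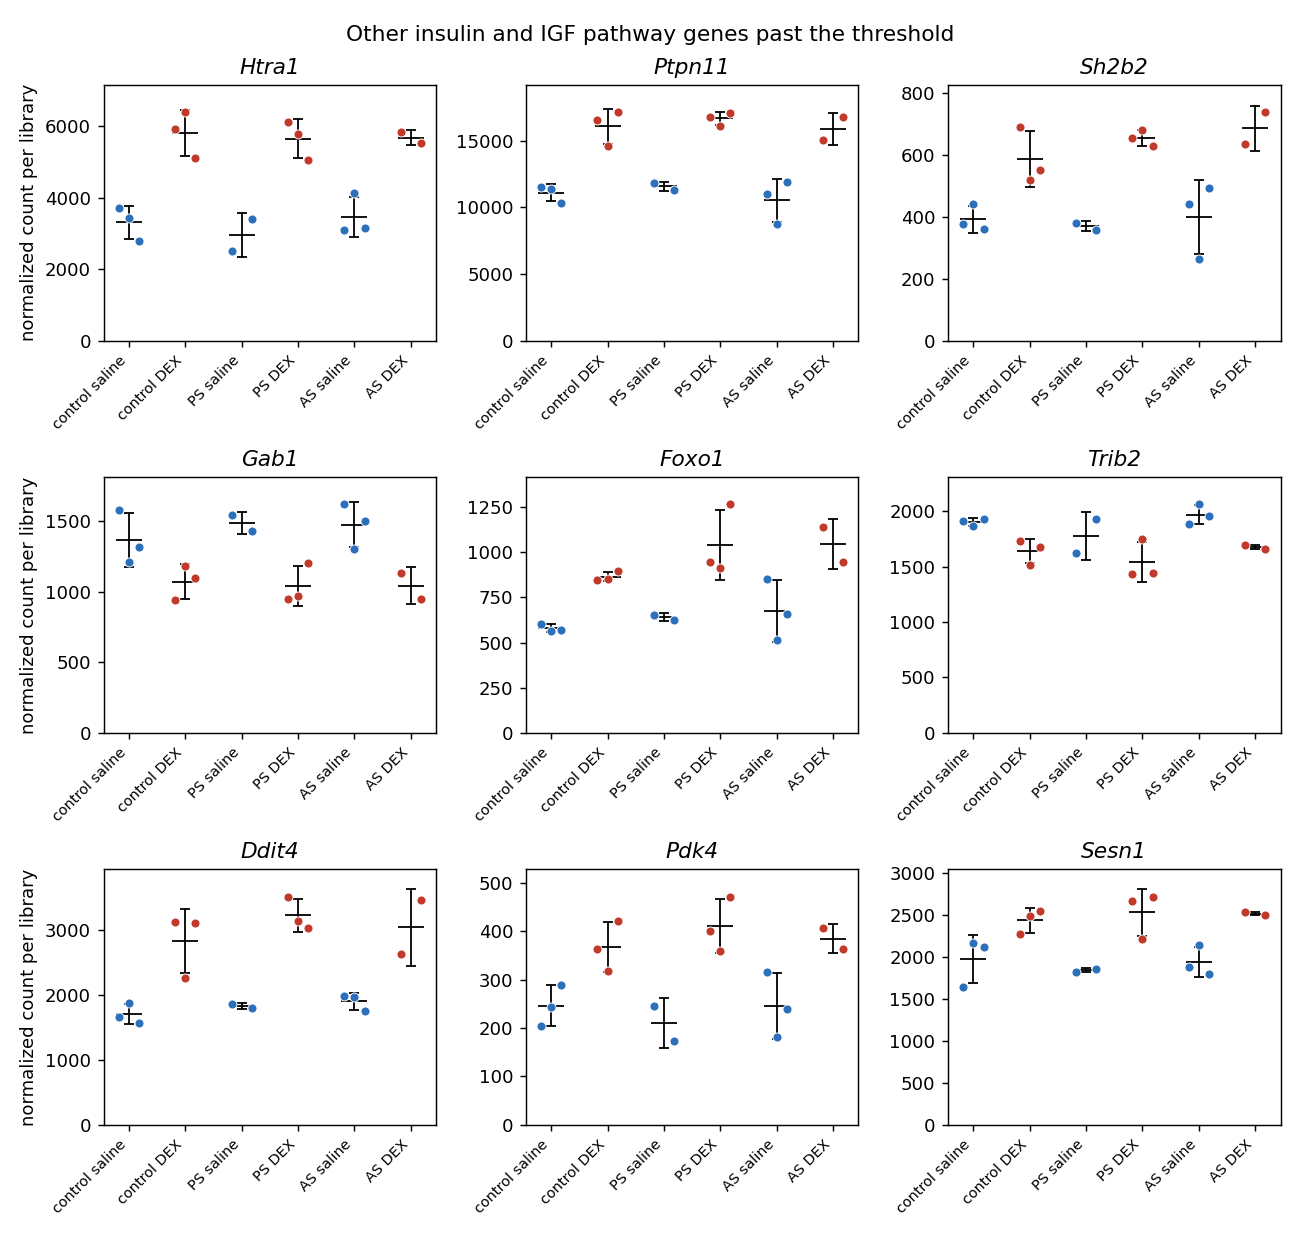
Normalized counts of the 9 other pathway genes called for DEX, by group (linear axes from 0). Blue points are saline libraries, red points DEX libraries, and black bars the group mean ± SD. Red points lie above all blue points for Htra1, Ptpn11, Sh2b2, Ddit4, Pdk4 and Sesn1 and below them for Gab1, while the arms overlap for Foxo1 and Trib2.

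Each library is a mixture of cell types, so fewer cells of a type and less RNA per cell cannot be told apart. All 10 microglia markers were listed, 3 were called lower on average, and their summed level was 9102 to 14229 in saline and 8251 to 9917 in DEX libraries. Their mean log2 deviation was 0.003 to 0.56 in saline and -0.34 to -0.013 in DEX libraries, without overlap. That mean overlapped between the arms for every other cell type list. All 10 myelin markers were listed, 4 were called lower, and the sums were 137505 to 225802 and 134935 to 189893. Of 10 astrocyte markers, all listed, 1 was called higher and sums were 136764 to 171314 and 145447 to 158774. Of 9 listed endothelial, 10 listed mural cell and 12 listed serotonin neuron markers 1 each was called lower. No GABA neuron marker of 8 listed was called. Their sums in AS mice were 57078 to 75908 with saline and 81716 to 97160 with DEX, while the arms overlapped in control and PS mice. Their mean log2 deviation overlapped in AS mice, at -0.27 to 0.28 with saline and 0.25 to 0.26 with DEX. Sums of other lists also did not overlap in AS mice. Those of microglia, myelin, endothelial and mural cell markers were lower with DEX, and those of choroid plexus markers higher. Of 8 listed oligodendrocyte precursor markers 2 were called higher and 2 lower. No ependymal marker of 11 listed was called, and their sums varied widely, from 4149 to 13724 in saline and from 1800 to 22723 in DEX libraries. The part of these shifts in the differences of Igf1r and of the other pathway genes was not tested.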

How the data were processed

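The authors trimmed reads with fastp 0.20.1, aligned them with HISAT2 2.2.1 to GRCm38/mm10, counted them over GENCODE genes with featureCounts (Subread 2.0) and scaled them with DESeq2 1.36.0, and their processing notes also name FastQC and Picard. The deposited values used here are a signal: read counts of each gene after division by the library's size factor. Fold changes and p-values that the authors placed in the same deposit were not used.

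Dividing each library by its smallest step gave whole reads for 100% of values (tolerance 0.02). Across the 16 libraries 973 genes had under 10 reads in at least 1 library and 496 were at 0. All 14 replicate pairs had r from 0.958 to 0.987 on the log2 scale and differed beyond sampling noise, the smallest chi-square being 22.4 per degree of freedom. Whether counting used strand is not given in the sources used here, so reads of antisense genes over Igf2r, Insr, Irs1 and Irs2 cannot be told apart from theirs. GENCODE lengths matched 14499 genes, of which 14493 had length and GC content.

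limma 3.58.1 in R 4.3.3 was fitted to log2(value + 1) with 6 group means over all 16 libraries (10 residual and 3.88 prior degrees of freedom), and the 13 comparisons were drawn from it with BH adjustment over 14504 genes. Fold changes are on the log2(value + 1) scale. The average DEX comparison weighted the 3 phenotypes equally. Calls required an adjusted p below 0.1. The code was tested on simulated data. DESeq2 1.42.0 and edgeR 4.0.16 on the whole reads, other pseudocounts (0.1 and 10), a minimum mean of 100, TMM and quantile scaling, library weights, fits of the compared groups alone, and leaving out each library were alternatives. Removal of the trend on transcript length, with or without GC, and leaving out con_sal_104 and AS saline 40 together were added after seeing the data. GC and length trends were lowess curves of the deviation from the gene mean.

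The members and lists were chosen with earlier results of these data known. All listed members were described, together with every other listed pathway gene that passed the threshold in any comparison and the listed genes most correlated with Igf1r. Ratios of members, and counts of genes whose arms do not overlap, were chosen after values were seen. Where a lack of overlap stands without a share of all genes, that share was not counted. The labels do not say that libraries are separate animals, which the study's methods do. Sequences are from RefSeq (GRCm38.p6).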

Additional observations from a re-analysis of the deposited data

How the results depend on the processing

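The increase of Igf1r with DEX on average stayed called in each of the 11 settings that kept every group, with log2 differences of 0.40 to 0.61, and failed in 8 of 16 refits that each dropped a library (0.51 to 0.68). Insr was called in 5 of those 11 and in 3 of those 16. Groups of 2 or 3 libraries limit precision, so missed calls do not show equal levels. No paired analysis was possible because the groups share no replicate numbers. The causes of the changes below were not tested.

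The counts below stand beside all genes called in the same setting, in parentheses. Members called for DEX on average numbered 1 (625), against 2 with library weights (1328), 2 by DESeq2 (904), 2 with the length trend removed (683), 3 with length and GC trends removed (848), 2 without con_sal_104 and AS saline 40 (602), and 0 to 2 without 1 library (356 to 713). In control mice DESeq2 called 1 (437) and fits without 1 library 0 to 1 (72 to 289), and in AS mice library weights gave 1 (1402). Other pathway genes called in control mice, 3 (183), numbered 1 in a fit of the compared groups alone (62) and 1 to 5 without 1 library. In PS mice, 2 (0.703% of all genes), they numbered 9 with library weights (529), 6 by DESeq2 (187), 4 with length and GC trends removed (159), 6 without both libraries (135) and 0 to 6 without 1 library. In AS mice, 3 (100), they numbered 15 with library weights (1402), 0 with the compared groups alone (6), 6 by DESeq2 (274), 1 without both libraries (72) and 0 to 2 without 1 library (11 to 118). On average, 9 (625), DESeq2 called 14 (904).

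Signs turned for uncalled estimates alone. For DEX in control mice, Irs1 was -0.046 and Igfbp2 0.053 with the length trend removed, and -0.034 and 0.16 with length and GC trends removed. Igfbp2 ran from -0.44 to 0.20 without 1 library. For DEX in PS mice, Igfbp4 was -0.0038 with quantile normalization and ran from -0.019 to 0.29 without 1 library, as Irs1 did from -0.12 to 0.052. For DEX in AS mice, Igfbp5 was -0.0076 with quantile normalization, -0.19 with library weights, -0.0026 by DESeq2, -0.0094 by edgeR, -0.099 and -0.12 with the trends removed, -0.16 without both libraries and -0.16 to 0.17 without 1, and Igfbp2 ran from -1.11 to 0.068. On average Igf2r was -0.00066 with length and GC trends removed and -0.019 without both libraries.

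For PS against control under saline, removal of the length trend gave -0.13 for Irs1, 0.0027 for Igfbp2 and -0.033 for Igfbp5, and of both trends -0.13 for Irs1 and -0.024 for Igfbp5. Without 1 library Igfbp2 ran from -0.47 to 0.060 and Igfbp5 from -0.0066 to 0.27. For AS against control under saline, Irs2 was 0.11 with library weights, 0.012 by DESeq2, 0.027 by edgeR and 0.21 without both libraries. Igfbp4 was -0.071 with quantile normalization, -0.11 with weights, -0.0045 by DESeq2 and -0.15 without both libraries. Insr was -0.025 and -0.046 with the trends removed, and Igfbp2 0.033 with both removed. Without 1 library Igf1r ran from -0.088 to 0.52, Igf2r from -0.11 to 0.42, Insr from -0.095 to 0.34, Irs1 from -0.21 to 0.069, Irs2 from -0.19 to 0.26, Igfbp2 from -0.35 to 0.16 and Igfbp4 from -0.088 to 0.14. For AS against PS under saline, Igfbp2 was -0.13 with weights, -0.042 with the length trend removed and -0.022 without both libraries, and without 1 library it ran from -0.12 to 0.36 and Igfbp5 from -0.11 to 0.20.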
